A study of Solanum pimpinellifolium with 72 samples.

Results

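Near-isogenic tomato lines that carry both lc and fas (lc/fas) were compared with lines that carry lc alone, to describe the effect of adding fas. All lines are in the background of the wild species Solanum pimpinellifolium accession LA1589. The lc allele is a pair of base changes downstream of SlWUS on chromosome 2. The fas allele is an inversion on chromosome 11, with 1 breakpoint in the promoter region of SlCLV3 and the other in the first intron of SlYABBY2b. Both groups carry lc, and they differ by the fas inversion and by whatever flanking donor DNA came with it. They may also differ by donor DNA left elsewhere in the genome, which was not checked. With 1 line of each genotype, such differences cannot be told apart from the effect of fas. The lines went through repeated backcrosses, each line keeps an introgressed stretch of cultivated tomato around its locus, and each genotype is 1 line.

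The libraries were chosen by genotype label alone. There were 24 of 72 in the whole series, 12 from lc/fas and 12 from lc. For each genotype there were 4 biological replicates at each of 3 stages. The early stage pooled inflorescence meristems, floral meristems and the youngest flower buds (2 days post floral initiation, dpi), and the later stages were flower buds at 4 dpi and 6 dpi. Inflorescences of several greenhouse plants were pooled for each replicate and dissected by stage, so every library is a mixture of organs and of meristem and non-meristem cells. The 12 fas and 12 wild type (WT) libraries of the same stages were set beside them to show the effect of fas without lc.

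In the meristem, the homeodomain protein WUSCHEL is made in a small organising centre and keeps the overlying cells in a stem cell state. These cells produce the peptide signal CLAVATA3, which moves down and limits WUSCHEL, so that loss of the signal lets meristems and flowers enlarge. Tomato carries a SlCLV3 and a closely related gene, SlCLE9, that can stand in for it in part. YABBY genes encode transcription factors that act in the outer side of lateral organs. Lines with lc and fas are known for flowers with more organs and fruits with more locules, and large-fruited tomatoes often carry both.

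Recombinants around the loci were selected in the crosses with marker primers that the study lists by locus. The forward primer of a listed marker is shown for each locus. That for lc is a derived cleaved amplified polymorphic sequence (dCAPs) marker on chromosome 2. That for fas is an insertion-deletion (InDel) marker on chromosome 11. Whether these markers read the causal changes themselves was not checked. Both are 20 bases long and are written 5′ to 3′.
11EP7 (lc): gccgaacacatcaacatttc
EP1802 (fas): catcaccactatcaccacca

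Expression was measured by strand-specific RNA-seq and given in RPKM, which is the read count of a gene scaled to its length and to the library total. The reads behind the table, recovered to 3 digits, were 14400000 to 50700000 per library in lc/fas and 8510000 to 25800000 in lc, with medians of 20400000 in lc/fas and 18300000 in lc. The lc library of replicate 2 at 4 dpi stood apart, with a standard deviation of 0.466 (log2) for its deviations from the group means, against 0.144 to 0.271 in the other 23 libraries.

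The test was run on the 20577 of 34727 genes that reached 1 RPKM in 4 or more libraries. Changes are differences in log2(RPKM + 1), lc/fas minus lc, from limma with trend across all 72 libraries. They understate the change of low genes. A gene was called when its Benjamini-Hochberg adjusted p was below 0.05, two-sided. Libraries with the same replicate number deviated together, so values from a fit with the replicate number as a block are given where they changed a call or moved a count by more than 1.5 times.

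Among the called genes, SlYABBY2b fell and SlCLE9 rose by the largest amounts over the stages. SlYABBY2b (Solyc11g071810) was 8.00-fold lower in lc/fas than in lc at the early stage, 30.4-fold lower at 4 dpi and 25.7-fold lower at 6 dpi (ratios of mean RPKM, and 24.1-fold at 4 dpi without lc replicate 2). SlCLE9 (Solyc06g074060) was 6.10-fold higher at the early stage and 3.82-fold higher at 4 dpi, or 6.01-fold at 4 dpi without lc replicate 2. SlCLV3 (Solyc11g071380) was lower over the stages by 0.56 on the log2 scale. SlWUS (Solyc02g083950) did not pass the test at any stage. These are bulk samples, so that fewer cells of a type and less RNA per cell cannot be told apart for any of these genes.

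SlYABBY2b encodes a YABBY transcription factor and is the gene whose intron holds the far breakpoint of the inversion. At the early stage it had 3.70, 4.08, 7.19 and 4.61 RPKM in lc/fas libraries, against 36.6, 39.7, 43.8 and 36.4 RPKM in lc libraries. At 4 dpi the values were 2.83, 4.55, 3.75 and 4.97 RPKM in lc/fas, against 94.8, 198, 98.7 and 98.0 RPKM in lc. At 6 dpi they were 5.16, 4.14, 3.85 and 4.33 RPKM in lc/fas, against 105, 106, 118 and 121 RPKM in lc. The groups were far apart at every stage, and the lc/fas level stayed low while the lc level was higher in the older buds. The log2 change was -2.80 at the early stage (SE 0.166, adjusted p = 9.99e-20), -4.56 at 4 dpi (adjusted p = 1.1e-30), -4.40 at 6 dpi (adjusted p = 7.5e-30) and -3.92 over the stages (SE 0.0959, adjusted p = 3.11e-40). The change at 4 dpi was larger than that at the early stage by -1.76 (adjusted p = 8.12e-06, and -1.51 with an adjusted p of 5.26e-05 without lc replicate 2 at 4 dpi), and that at 6 dpi by -1.61 (adjusted p = 0.000113). The shortest length that made the read counts of SlYABBY2b whole in every library was 464 bases, which was not checked against a gene model. Reads on either side of the breakpoint were not separated.

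SlCLE9 encodes a CLV3-like signal peptide and lies on chromosome 6, away from both loci. At the early stage it had 14.4, 13.1, 11.2 and 13.1 RPKM in lc/fas, against 1.79, 2.79, 2.51 and 1.41 RPKM in lc. At 4 dpi it had 5.31, 4.81, 3.39 and 5.05 RPKM in lc/fas, against 1.01, 2.54, 0.519 and 0.784 RPKM in lc. The lc/fas libraries were all above the lc libraries at both stages. At 6 dpi the gene was near the bottom of the range, with 0.673, 2.10, 0.325 and 1.17 RPKM in lc/fas (11 to 36 reads per library) and 0.176, 0.291, 0.432 and 0.174 RPKM in lc (4 to 6 reads), and the groups overlapped. The log2 change was 2.18 at the early stage (SE 0.228, adjusted p = 1.68e-09), 1.41 at 4 dpi (adjusted p = 0.000436, and 1.67 with an adjusted p of 1.67e-05 without lc replicate 2), 0.64 at 6 dpi (95% interval 0.18 to 1.09, adjusted p = 1) and 1.41 over the stages (SE 0.132, adjusted p = 1.58e-11).

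SlCLV3 encodes the CLAVATA3 peptide, and its promoter holds the other breakpoint. At the early stage it had 5, 7.91, 6.45 and 4.75 RPKM in lc/fas, against 7.76, 16.0, 9.43 and 8.05 RPKM in lc. The ranges overlapped by a narrow margin, and the log2 change of -0.65 (95% interval -1.12 to -0.19) had an adjusted p of 0.857. At 4 dpi it had 0.876, 1.85, 0.968 and 0.822 RPKM in lc/fas (16 to 40 reads), against 2.32, 5.56, 2.32 and 2.67 RPKM in lc (22 to 59 reads). Every lc/fas library was below every lc library there (532 genes were apart in either direction, 2.59%), with a change of -0.95 (adjusted p = 0.14, and 0.0122 with the replicate block). Without lc replicate 2 the block fit gave -0.81 at 4 dpi (adjusted p = 0.277). At 6 dpi the values were 0.577, 1.14, 0.849 and 0.946 RPKM in lc/fas and 0.818, 1.46, 0.801 and 0.889 RPKM in lc, which overlapped. Over the stages the change was -0.56 (SE 0.135, adjusted p = 0.0457, and 0.00242 with the replicate block). This call rested on single libraries. The adjusted p ranged from 0.0165 to 0.53 when each replicate was left out in turn, the call was lost in 5 of those 8 fits, and without lc replicate 2 at 4 dpi the change was -0.48 (adjusted p = 0.154). With a pseudocount of 0.1 RPKM in place of 1 the adjusted p was 0.202.

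SlWUS encodes the tomato WUSCHEL protein and is the gene next to the lc base changes that both groups carry. At the early stage it had 34.4, 45.2, 33.7 and 26.8 RPKM in lc/fas, against 39.0, 67.4, 29.8 and 31.5 RPKM in lc. At 4 dpi it had 8.69, 10.8, 7.68 and 9.99 RPKM in lc/fas, against 5.77, 13.4, 3.52 and 4.52 RPKM in lc. At 6 dpi it had 5.15, 7.36, 5.55 and 6.72 RPKM in lc/fas, against 2.58, 4.54, 4.40 and 4.56 RPKM in lc. The groups overlapped at the early stage. At 4 dpi they overlapped through lc replicate 2 alone, and without it every lc/fas library was above the 3 lc libraries left. At 6 dpi every lc/fas library was above every lc library, as was the case for 452 genes in either direction (2.2%). The log2 changes were -0.20, 0.54 and 0.53 at the 3 stages, and over the stages the change was 0.29 (95% interval -0.01 to 0.59, adjusted p = 0.503). Without lc replicate 2 at 4 dpi the change was 0.89 at that stage (adjusted p = 1) and 0.41 over the stages (adjusted p = 0.494). Without lc replicate 2 at every stage it was 0.51 over the stages (adjusted p = 0.16).

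**Figure D1:**
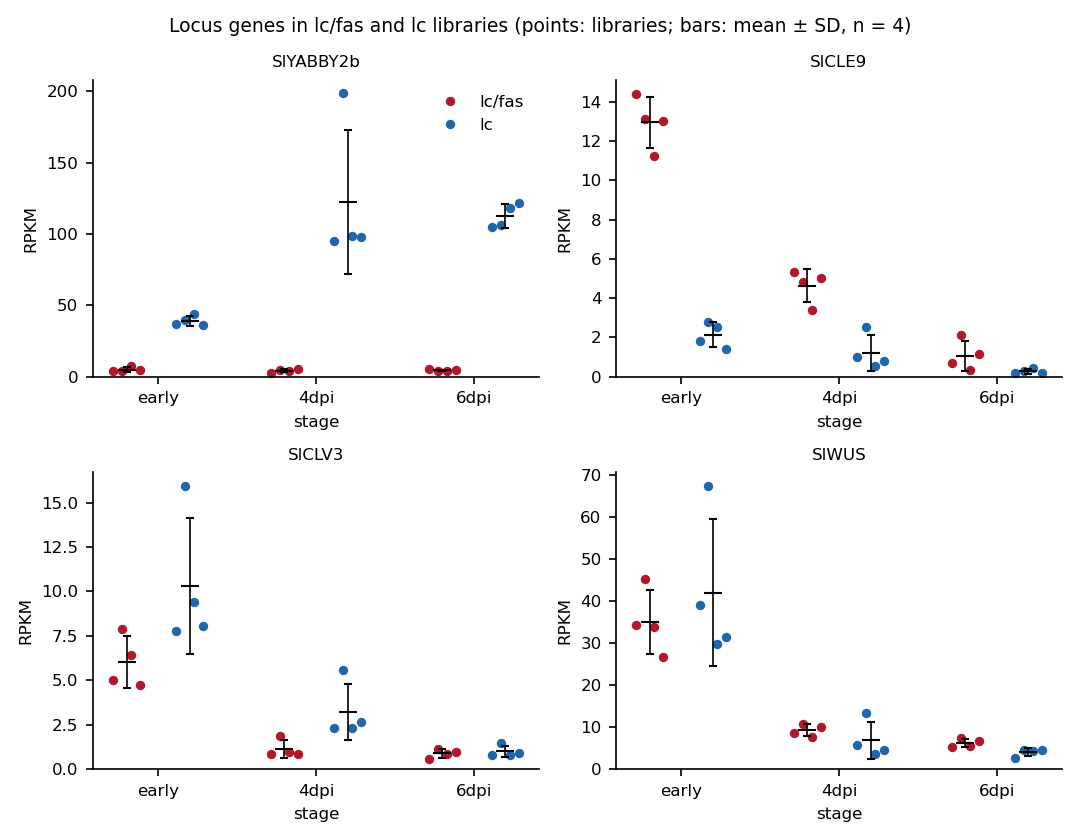
RPKM of SlYABBY2b, SlCLE9, SlCLV3 and SlWUS in each library (points; the bars mark the means of 4) at the early stage, 4 dpi and 6 dpi, with lc/fas left of lc. SlYABBY2b lay between 2.83 and 7.19 RPKM in all 12 lc/fas libraries and between 36.4 and 198 RPKM in all 12 lc libraries, and SlCLE9 was higher in lc/fas at the early stage and 4 dpi.

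Few other genes were called. In early libraries 18 of the 20577 genes tested were called (0.0875%), 9 higher and 9 lower in lc/fas, and 39 with the replicate block (0.19%). At 4 dpi 6 were called (0.0292%), 5 higher and 1 lower. With the replicate block 59 were called at 4 dpi (0.287%, 46 higher and 13 lower), and 5 when lc replicate 2 at 4 dpi was also left out. At 6 dpi 2 were called (0.00972%), and these were Solyc03g115910, which was higher, and SlYABBY2b. Over the stages 49 were called (0.238%), 31 higher (0.151%) and 18 lower (0.0875%), and 187 with the replicate block (0.909%, all 49 among them). Quantile normalization called 54, with 28 higher and 26 lower. Of the genes called, 7 at the early stage, 4 at 4 dpi, 1 at 6 dpi and 2 over the stages had a change of at least 2-fold.

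The number of calls depended on single replicates and on how stages were combined. Over the stages it was 25 without lc/fas replicate 1 and 89 without lc replicate 1. In early libraries it was 8, 9, 10 and 11 without lc/fas replicate 3, lc replicate 2, lc/fas replicate 4 and lc replicate 4. At 4 dpi it was 3 without lc/fas replicate 1 or 3, and 44 without lc replicate 3, 33 without lc replicate 1 and 26 without lc replicate 4. The over-stage test counts the 3 stages of a replicate number as separate libraries, although the inflorescences of a replicate were dissected into all of them. When each replicate was averaged over the stages before the test, 5 genes were called over the stages, all of them among the 49. They were SlYABBY2b, SlCLE9, Solyc03g115910, Solyc03g034400 and Solyc03g119770. Of the 20 genes with an over-stage call that the naming rule chose, all but SlYABBY2b and SlCLE9 (18) lost it there, SlCLV3 among them (adjusted p 0.0885 to 0.705).

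The genes called at the early stage included a pair of flowering regulators. A homolog of Arabidopsis ATC (Solyc06g074350), a member of the family that includes the flowering repressor TFL1, was the most changed gene after SlYABBY2b and SlCLE9. It had 13.8, 28.7, 24.9 and 9.62 RPKM in lc/fas, against 1.88, 5.42, 2.97 and 3.41 RPKM in lc. The libraries did not overlap, as was the case for 407 genes at this stage (1.98%), and the change was 2.14 (SE 0.448, adjusted p = 0.0238). The call was lost in 5 of the 8 fits that left out a replicate (adjusted p up to 0.145). At 4 dpi and 6 dpi the gene was below 1 RPKM in all but 2 libraries, 1 of each genotype.

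The homolog of SOC1 (AGL20, Solyc01g092950), a MADS-box gene that promotes flowering in Arabidopsis, also rose at the early stage. It had 22.8, 24.8, 30.2 and 22.1 RPKM in lc/fas, against 13.3, 13.3, 13.5 and 15.9 RPKM in lc, with a change of 0.78 (SE 0.15, adjusted p = 0.0077). At 4 dpi and 6 dpi its changes were -0.06 and 0.03, and the groups overlapped. The early call was lost without lc/fas replicate 3 (adjusted p = 0.0987).

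SlSWEET1b (Solyc04g064620), of the SWEET family of sugar transporters, had 15.1, 12.9, 13.4 and 12.2 RPKM in lc/fas at the early stage, against 8.87, 8.18, 9.10 and 7.97 RPKM in lc. The libraries were apart and the change was 0.59 (adjusted p = 0.0433), but the call was lost in all 8 fits that left out a replicate (adjusted p 0.0646 to 0.249). Over the stages its change was 0.34 (adjusted p = 0.02), lost in 6 of the 8. A homolog of the Arabidopsis gene F6′H2 (Solyc11g072120), which encodes an enzyme of coumarin synthesis, rose by 0.92 at the early stage (adjusted p = 0.0278). It had 116, 74.5, 126 and 108 RPKM in lc/fas, against 68.8, 43.0, 58.7 and 51.6 RPKM in lc, and that call was lost in 6 of the 8 fits.

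Of the genes lower at the early stage, the one with the lowest adjusted p after SlYABBY2b was Solyc02g071820, which neither the study nor the reference table annotates. It had 0.420, 1.33, 0.752 and 0.681 RPKM in lc/fas (30 to 77 reads), against 2.16, 3.13, 2.73 and 2.24 RPKM in lc (73 to 174 reads). The change was -1.01 (adjusted p = 4.45e-09), and it held in all 8 fits that left out a replicate. At 4 dpi and 6 dpi the changes were 0.01 and -0.04, but the gene was near the bottom of the range there. Its 4 dpi means were 0.155 RPKM in lc/fas and 0.151 RPKM in lc. It had 4 to 22 reads per library at 4 dpi and 10 to 32 at 6 dpi. On the log2(RPKM + 1) scale such low values keep a change near 0. The differences from the early change, 1.01 at 4 dpi (adjusted p = 0.000178) and 0.97 at 6 dpi (adjusted p = 0.000529), passed the test, though not with a pseudocount of 0.1 RPKM in place of 1, where SlYABBY2b was the only gene called in either stage difference. In all, 4 genes had a change that differed between 4 dpi and the early stage (0.0194%), 3 between 6 dpi and the early stage (0.0146%) and 0 between 6 dpi and 4 dpi by limma, where 501 had an unadjusted p below 0.05.

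Over the stages the called genes outside the fas region had changes of moderate size and various functions. A homolog of Arabidopsis NRPD2 (Solyc08g075940), a subunit shared by the RNA polymerases that act in RNA-directed DNA methylation, was higher at every stage. It had 26.0, 39.0, 37.2 and 33.5 RPKM in lc/fas at the early stage, against 22.0, 18.7, 24.4 and 24.3 RPKM in lc. The 4 dpi values were 28.9, 26.4, 36.4 and 35.1 RPKM in lc/fas, against 20.0, 15.8, 25.7 and 22.7 RPKM in lc. At 6 dpi it had 30.8, 34.8, 33.8 and 33.0 RPKM in lc/fas, against 23.1, 25.9, 21.7 and 29.5 RPKM in lc. The groups did not overlap at any stage, which was so in the same direction for 10 genes of all those tested (0.0486%), and the change over the stages was 0.52 (SE 0.0858, adjusted p = 0.000348), called whichever replicate was left out (adjusted p up to 0.00733) but not when replicates were averaged over the stages first (adjusted p = 0.149).

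A homolog of Arabidopsis SULTR2;1 (Solyc12g056920), a sulfate transporter, had 27.3, 41.2, 39.0 and 36.0 RPKM in lc/fas at the early stage, against 17.9, 25.05, 23.5 and 22.2 RPKM in lc. The 4 dpi values were 11.6, 15.6, 15.2 and 15.9 RPKM in lc/fas, against 7.61, 5.65, 10.9 and 9.33 RPKM in lc. The libraries were apart at these stages and overlapped at 6 dpi. The change over the stages was 0.59 (SE 0.103, adjusted p = 0.00071). With the replicate block it was also called at the early stage (0.67, adjusted p = 0.00505, against 0.192 without the block) and at 4 dpi (0.75, adjusted p = 0.00163, against 0.112), the second of which was lost without lc replicate 2 (0.52, adjusted p = 0.106).

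Solyc07g061750, a homolog of an Arabidopsis ankyrin repeat gene, had its largest change at 4 dpi. It had 4.86, 4.47, 6.09 and 5.05 RPKM in lc/fas there, against 1.95, 2.49, 1.93 and 2.05 RPKM in lc (change 0.98, adjusted p = 0.0276), and over the stages the change was 0.61 (adjusted p = 0.00207). The 4 dpi call was lost without lc/fas replicate 1, 3 or 4 (adjusted p up to 0.2). Solyc06g054640, whose Arabidopsis homolog encodes a protein of the DUF506 family, had 3.10, 3.16, 3.12 and 3.27 RPKM in lc/fas at the early stage, against 1.71, 1.99, 1.32 and 1.74 RPKM in lc, and a change over the stages of 0.54 (adjusted p = 0.00489, and 0.0871 without lc/fas replicate 2).

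The lower genes included enzymes and a protease inhibitor. Solyc09g089690, a homolog of a 2-oxoglutarate-dependent dioxygenase, had 138, 155, 162 and 146 RPKM in lc/fas at the early stage, against 197, 266, 258 and 251 RPKM in lc. At 4 dpi it had 248, 243, 262 and 268 RPKM in lc/fas, against 363, 378, 472 and 384 RPKM in lc. At 6 dpi it had 359, 359, 360 and 380 RPKM in lc/fas, against 394, 475, 518 and 630 RPKM in lc. It was another of the 10 genes apart at every stage. Its change over the stages was -0.59 (SE 0.0854, adjusted p = 2.12e-05), called whichever replicate was left out but not when replicates were averaged over the stages first (adjusted p = 0.0885). Its early change of -0.69 passed the test as well (adjusted p = 0.0278), but lost the call in 6 of the 8 fits.

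A homolog of CUT1 (Solyc05g009270), which elongates the fatty acids of cuticular wax in Arabidopsis, had 3.72, 5.30, 4.66 and 6.04 RPKM in lc/fas at the early stage, against 8.33, 8.03, 6.30 and 7.12 RPKM in lc. Its change over the stages was -0.61 (adjusted p = 0.00697), lost in 3 of the 8 fits (adjusted p up to 0.0836). Solyc09g084450, a homolog of a serine protease inhibitor, changed by -0.49 (adjusted p = 0.0119), with 45.7 to 61.7 RPKM in lc/fas at 4 dpi against 67.0 to 159 RPKM in lc. Without lc/fas replicate 1 or lc replicate 2 it was not called (adjusted p up to 0.16). Solyc09g075710, a homolog of the carboxylesterase CXE13, changed by -0.48 (adjusted p = 0.0299), with 6.93 to 8.83 RPKM in lc/fas at 4 dpi against 8.80 to 33.2 RPKM in lc. The highest lc value was in replicate 2, and without that library the change was -0.35 (adjusted p = 0.064).

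**Figure D2:**
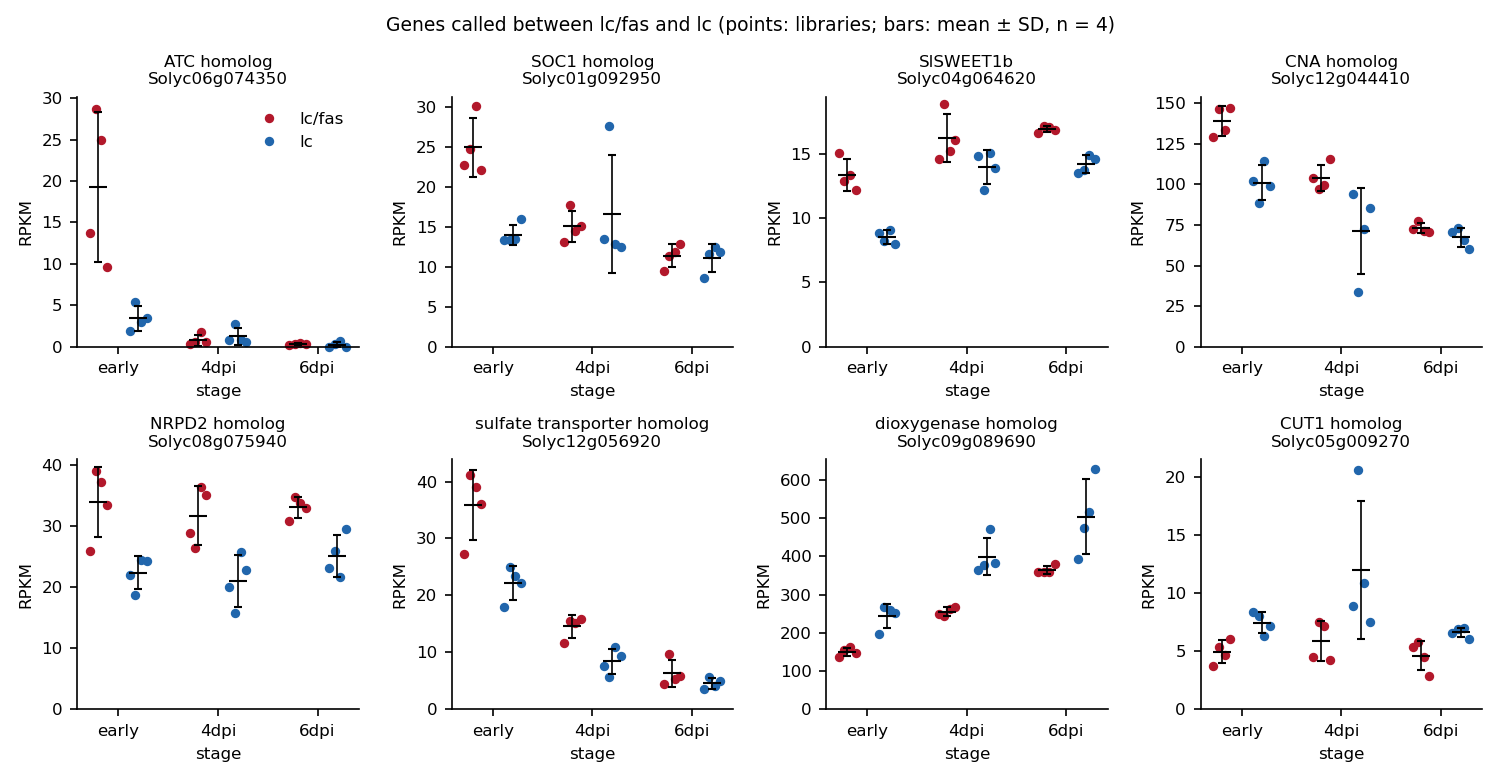
RPKM in each library (points; the bars mark the means of 4) of 8 genes called in lc/fas minus lc at the early stage or over the stages, with lc/fas left of lc at each stage. The ATC and SOC1 homologs are apart at the early stage only, and the NRPD2 and dioxygenase homologs are apart at all 3 stages.

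Of the 34 genes of meristem and organ patterning tested, 2 were called over the stages (0.238% of all genes tested), both higher in lc/fas, and 4 with the replicate block (0.909% of all). Both calls without the block were lost when replicates were averaged over the stages first (adjusted p = 0.0885 for the CNA homolog and 0.25 for the PHB homolog). Their median change was 0.033, against 0.015 over all genes tested. The called members were homologs of CNA and PHB, transcription factors of the class III HD-ZIP family that act in meristems and on the upper side of lateral organs in Arabidopsis. The CNA homolog (Solyc12g044410) had 129, 147, 133 and 147 RPKM in lc/fas at the early stage, against 102, 88.6, 115 and 99.2 RPKM in lc. At 4 dpi the values were 104, 97.4, 99.5 and 116 RPKM in lc/fas, against 93.9, 33.9, 72.6 and 85.4 RPKM in lc. The groups were apart at both stages, and the change over the stages was 0.40 (SE 0.0806, adjusted p = 0.00535) and 0.30 without lc replicate 2 at 4 dpi, which had the lowest value.

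The PHB homolog (Solyc02g024070) had 55.6, 64.8, 56.8 and 67.8 RPKM in lc/fas at the early stage, against 47.7, 38.6, 55.2 and 50.9 RPKM in lc. Its change over the stages was 0.31 (SE 0.0656, adjusted p = 0.0132), 0.23 without lc replicate 2 at 4 dpi, and the call was lost in 3 of the 8 fits (adjusted p up to 0.116). At 4 dpi the CNA and PHB homologs were called with the replicate block (adjusted p = 0.0234 and 0.0324, against 0.0806 and 0.12 without it), and neither was called in that fit without lc replicate 2 (adjusted p = 0.79 and 0.869). A second PHB homolog (Solyc02g069830) had a change of 0.24 (adjusted p = 0.162, 0.0494 with the block, and 0.15 with the block but without lc replicate 2 at 4 dpi). The second CNA homolog (Solyc08g066500) and the REV homologs Solyc11g069470 and Solyc12g020120 had changes of 0.13, 0.14 and 0.11, which did not pass the test.

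The block also added AN3, a growth regulator of leaves (homolog Solyc11g006230, change 0.30, adjusted p = 0.021 against 0.11), and the auxin response factor ARF8 (homolog Solyc02g037530, change 0.33, adjusted p = 0.00877 against 0.0707). Among the 6 YABBY genes tested SlYABBY2b was the only one called. The homolog of CRC (Solyc01g010240), a YABBY gene of carpel development, had a change of 0.60 (95% interval 0.26 to 0.95, adjusted p = 0.156, and 0.0416 with the block). The groups overlapped for it at every stage.

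The remaining lists gave few calls over the stages. Of 22 floral identity genes tested 0 were called by limma and 2 with the block, an AP1 homolog (Solyc02g089210, 0.30, adjusted p = 0.00962 against 0.26) and a FUL homolog (Solyc03g114830, -0.24, adjusted p = 0.0327 against 0.463, and 0.108 with the block but without lc replicate 2 at 4 dpi). TAG1 (Solyc02g071730), the tomato AGAMOUS gene of stamens and carpels, had a change of 0.21 (95% interval -0.16 to 0.57). No gene was called by limma among 18 of sterol and brassinosteroid synthesis, 16 of cytokinesis and microtubules, 14 of auxin (1 with the block), 11 of light harvesting, 6 of the clock and 10 of heat and stress. Their median changes ran from -0.175 (heat and stress) to 0.042 (auxin). Of 41 homologs of genes that Arabidopsis WUS induces 0 were called (2 higher and 2 lower with the block), and of 50 homologs of genes that it represses the 1 called was SlCLV3. Both lists hold only homologs that were among the study's own differentially expressed genes, so they were not chosen independently of these genotypes. The list places SlCLV3 with the repressed genes, whereas the paper describes WUS as an activator of CLV3.

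The fas region had a larger share of its genes called than its flanks or the rest of the genome. Of 35 genes tested from Solyc11g071370 to Solyc11g071830, the stretch by gene order that spans SlCLV3 and SlYABBY2b, 10 were called over the stages (28.6%), 4 higher and 6 lower. The ends of the stretch are the first and last genes that the study marked in the region, and were not chosen independently of these genotypes. At the early stage, 4 dpi and 6 dpi, 2, 1 and 1 of the 35 were called. SlYABBY2b alone stayed called when replicates were averaged over the stages first. Of the 35 tested genes just before the region 1 was called (2 with the block), and of the 35 just after it 0 (1 with the block). On the rest of chromosome 11 the count was 2 of 1309 (0.153%), and on the other chromosomes 36 of 19163 (0.188%). With the block these counts were 8 and 165, and that of the region was 11. The median absolute change was 0.206 in the region, against 0.0856 just before it and 0.059 just after it. The inversion and the flanking donor DNA cannot be told apart here, since every lc/fas library carries both. In this region lc/fas carries DNA of cultivated tomato and lc that of the wild species, and all reads were aligned to the same reference. A difference between the alleles in how reads align cannot be told apart from a change in expression, and was not tested.

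The other called members of the region with an annotated homolog included genes of ribosomal proteins and enzymes. Solyc11g071530, a homolog of a ribosomal L7/L12 protein gene, had 7.53, 6.30, 5.72 and 7.24 RPKM in lc/fas at the early stage, against 4.78, 5.52, 5.42 and 4.77 RPKM in lc, and a change of 0.37 over the stages (adjusted p = 0.00489). Solyc11g071490, a ribosomal L30 homolog, had 1630, 1429, 1382 and 1316 RPKM in lc/fas at the early stage, against 1774, 2069, 1580 and 1700 RPKM in lc (change over the stages -0.33, adjusted p = 0.0132). These ribosomal protein homologs moved in opposite directions, and the early groups were apart for Solyc11g071530 and overlapped for Solyc11g071490.

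Solyc11g071790, a homolog of the succinate dehydrogenase subunit gene SDH6, changed by -0.31 (adjusted p = 0.0248), with 42.6 to 58.8 RPKM in lc/fas at 6 dpi against 62.9 to 81.2 RPKM in lc. Solyc11g071640, a glycosyl hydrolase homolog, changed by 0.27 (adjusted p = 0.0185), with 346 to 403 RPKM in lc/fas at 6 dpi against 280 to 291 RPKM in lc. Without lc replicate 2 at 4 dpi its change was 0.22 and the call was lost (adjusted p = 0.0637). The unannotated Solyc11g071410 had 9.21, 8.50, 11.2 and 9.14 RPKM in lc/fas at the early stage, against 5.75, 5.61, 5.94 and 5.40 RPKM in lc. It was called there (0.65, adjusted p = 0.0278, lost in 7 of the 8 fits) and over the stages (0.39, adjusted p = 0.00978). When each replicate was left out in turn, the over-stage call was lost in 1 of 8 fits for Solyc11g071530, 2 for Solyc11g071410, 3 each for Solyc11g071490 and Solyc11g071640, and 4 for Solyc11g071790, with adjusted p up to 0.21.

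**Figure D3:**
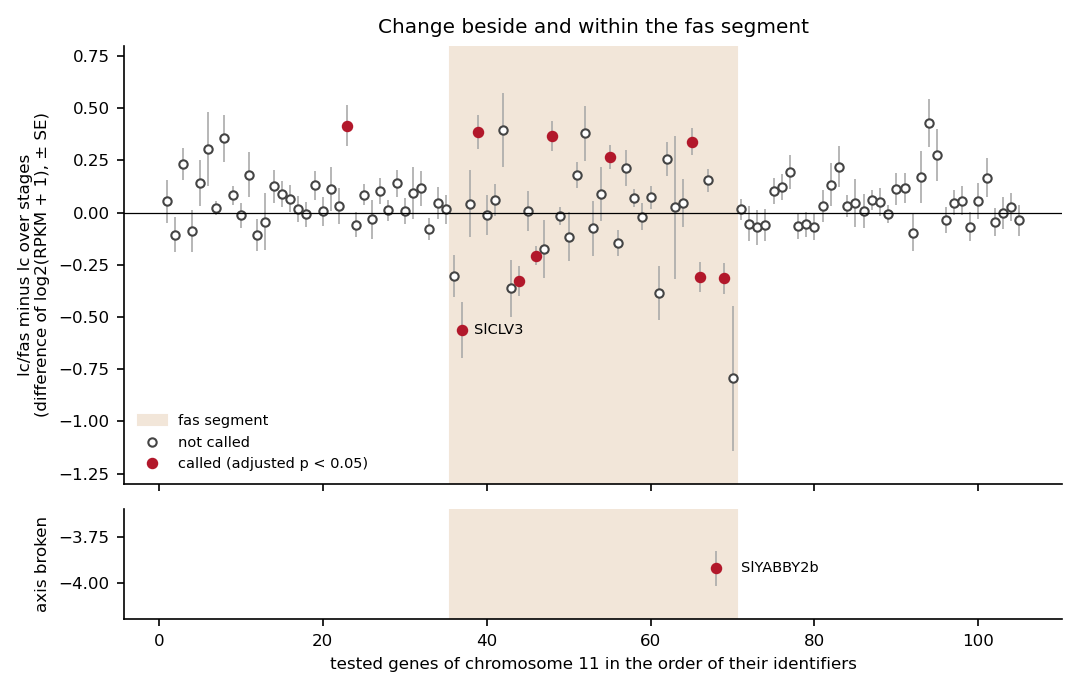
Change over the stages (log2, lc/fas minus lc) of 105 genes tested on chromosome 11 in gene order, 35 in the fas region (shaded) and 35 on each side, with called genes marked and a broken axis for SlYABBY2b. The region holds 10 called genes in both directions, and its flanks hold 1 and 0. Of the 10, SlYABBY2b alone stayed called when replicates were averaged over the stages first.

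The 12 fas and 12 WT libraries are separate from those above, so the effect of fas without lc could be set beside its effect on lc. SlYABBY2b changed by -4.09 over the stages in fas minus WT and SlCLE9 by 1.17 (adjusted p = 2.01e-08). The effects of fas in the 2 backgrounds differed by 0.17 for SlYABBY2b (95% interval -0.10 to 0.44) and 0.24 for SlCLE9 (-0.14 to 0.61), and neither passed the test. SlCLV3 had a change of -0.32 in fas minus WT (adjusted p = 0.585), and its effects differed by -0.24 (-0.62 to 0.14). SlWUS had a change of 0.31, and its effects differed by -0.02 (-0.44 to 0.40). The ATC homolog rose at the early stage in fas minus WT as well, by 2.26 (adjusted p = 0.0166).

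Of the 49 genes called over the stages in lc/fas minus lc, 46 had the same sign in fas minus WT (93.9%), against 64.1% of all genes tested. Outside the fas region it was 36 of 39 (92.3%). Of the 187 genes called with the replicate block, 146 had the same sign (78.1%). In fas minus WT 17 genes were called in all (0.0826%, and 60, 0.292%, with the replicate block), and 8 of the 49 were among them. These 8 included the NRPD2 homolog (0.48, adjusted p = 0.00168), Solyc07g061750 (0.58, adjusted p = 0.00726), Solyc06g054640 (0.61, adjusted p = 0.00106) and Solyc11g071530 (0.43, adjusted p = 0.000432). The change was smaller in the WT background for 45 of the 49. Since the genes were called in the lc background, this count and the medians that follow are descriptions. Outside the fas region the median size was 0.41 in the lc background, where the genes were called, and 0.17 in the WT background (39 genes). In the region it was 0.33 in the lc background and 0.30 in the WT background (10 genes).

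**Figure D4:**
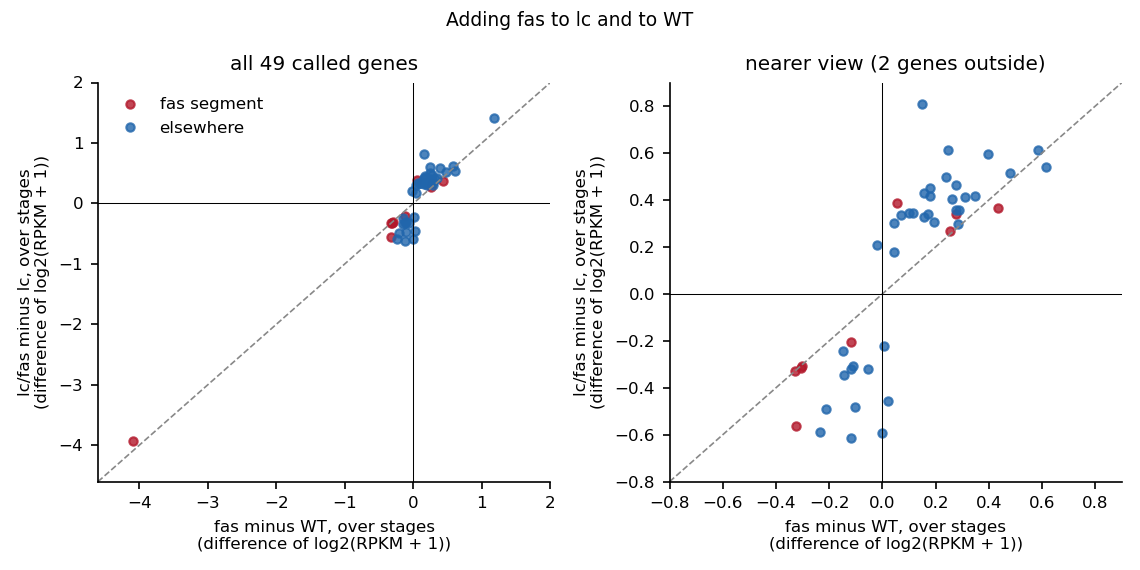
Change over the stages (log2) in fas minus WT (horizontal) and lc/fas minus lc (vertical) for the 49 genes called in lc/fas minus lc, in full and in a nearer view that leaves out SlYABBY2b and SlCLE9. All but 3 genes have the same sign on both axes, and 45 of the 49 have the smaller change on the horizontal axis.

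The effect of fas differed between the 2 backgrounds for 6 genes over the stages (0.0292%), 1 higher and 5 lower in the lc background, and for 15 with the replicate block (0.0729%). Within stages 2 were called at 4 dpi (0.00972%), and 0 at the early stage and at 6 dpi by limma, where 471 and 163 had an unadjusted p below 0.05. The gene that was higher was Solyc03g115910, which has no annotation. At 4 dpi this gene had 1.44, 1.83, 1.37 and 1.09 RPKM in lc/fas and 0.384, 0, 0.338 and 0.281 RPKM in lc. In the same buds it had 0.308, 0.176, 0.310 and 0.234 RPKM in fas and 0.305, 0.216, 0.283 and 0.279 RPKM in WT. Only the lc/fas libraries stood above the rest at each stage. Its change in lc/fas minus lc was 0.64, 0.96 and 0.83 at the 3 stages and 0.81 over them (adjusted p = 1.58e-11), and the effects of fas differed by 0.66 over the stages (adjusted p = 0.000367) and by 0.98 at 4 dpi (adjusted p = 0.0169, and 0.88 with an adjusted p of 0.109 without lc replicate 2 at 4 dpi). The counts were small, 17 to 116 reads per lc/fas library and 0 to 24 per lc library. With a pseudocount of 0.1 RPKM the difference between backgrounds over the stages was not called, nor was the change at 6 dpi. A near neighbour by ID, Solyc03g115930, named after its values were seen, was also higher in lc/fas than in lc. The ratios of mean RPKM were 1.97, 3.66 and 2.81 at the 3 stages, on at most 32 reads per library. It was not called, and its groups overlapped before 6 dpi. A local difference of the lc/fas line and a dependence of fas on lc cannot be told apart here.

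A homolog of ZWI (Solyc12g082730), a kinesin motor that shapes trichomes in Arabidopsis, and the unannotated Solyc12g082720, its neighbour by ID, had the opposite pattern. The ZWI homolog ranged from 23.4 to 31.7 RPKM in the 12 lc/fas libraries, 21.8 to 34.9 in lc, 28.4 to 39.1 in fas and 18.03 to 26.98 in WT. It had a change of -0.13 in lc/fas minus lc (adjusted p = 0.476) and of 0.51 in fas minus WT (adjusted p = 2.89e-08), with a difference of -0.64 over the stages (adjusted p = 4.78e-06) and -0.83 at 4 dpi (adjusted p = 0.00746). Solyc12g082720 had a change of -0.15 in lc/fas minus lc and of 0.60 in fas minus WT, with a difference of -0.75 (adjusted p = 5.7e-06). All WT libraries were below all fas libraries for both genes, and the lc/fas and lc libraries overlapped. Both IDs are on chromosome 12, which holds neither locus, and WT had the lowest means. Each genotype is 1 line, so a local difference of the WT line and a dependence of fas on lc cannot be told apart here. Solyc11g010480, a homolog of the thylakoid curvature gene CURT1D on chromosome 11 outside the fas region, differed by -0.28 (adjusted p = 0.0384).

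**Figure D5:**
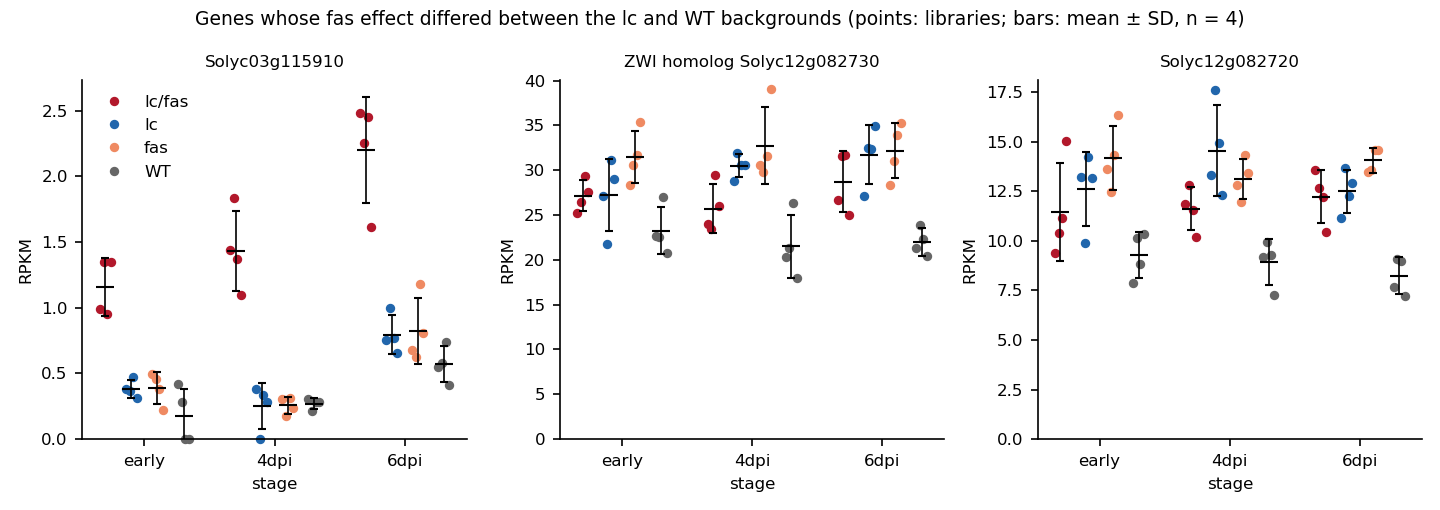
RPKM in each library (points; the bars mark the means of 4) of Solyc03g115910, the ZWI homolog and Solyc12g082720 in lc/fas, lc, fas and WT at the 3 stages. Solyc03g115910 is highest in lc/fas at each stage, and the other genes have their lowest means in WT.

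The lc/fas and lc libraries of a stage overlapped in developmental position and tissue markers. Each library was placed on an axis made of the 1336 genes that were higher and 431 genes that were lower in WT at 6 dpi than at the early stage, by at least 2-fold. The difference, lc/fas minus lc, was 3.08% of the WT early-to-6 dpi span at the early stage (p = 0.514), -0.495% at 4 dpi (p = 0.771) and -1.88% at 6 dpi (p = 0.543, exact permutation tests, two-sided, 4 against 4, smallest possible p 0.0286). The summed RPKM of 3 meristem markers (SlWUS, SlCLV3 and the STM homolog Solyc02g081120) was 206 to 273 in lc/fas and 209 to 307 in lc at the early stage. Since SlWUS and SlCLV3 are among the genes compared above, this sum is no independent measure of meristem content. For 11 light-harvesting genes the sum was 1060 to 1230 in lc/fas and 1020 to 1240 in lc at the early stage. The summed RPKM of 3 carpel markers was 258 to 320 in lc/fas and 186 to 299 in lc at 6 dpi, and that of 10 heat and stress genes was 270 to 1070 in lc/fas and 303 to 1430 in lc at the early stage. The ranges overlapped in each of these, and no marker of any list was at 0 in all libraries of a group. The part of any of these in the changes above was not tested.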

How the data were processed

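Total RNA of dissected inflorescence tissue was made into strand-specific libraries and sequenced as single-end reads by the authors. They aligned reads with TopHat2 and Bowtie2 (versions not given in the sources used here) to the ITAG2.3 tomato annotation, counted sense reads per gene and deposited RPKM values for 34727 genes. The files pair no symbols or coordinates with the gene IDs, so names and Arabidopsis homologs were taken from the study's own ID pairs, and regions were given by ID order.

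The values, log2(RPKM + 1), were compared with limma 3.58.1 (trend, R 4.3.3) in 1 fit of 18 group means over 72 libraries, for genes that reached 1 RPKM in 4 or more libraries, with Benjamini-Hochberg adjustment over all of them. Low RPKM values were whole multiples of what a read is worth (100% of 578694 values under 500 reads, within 0.01 reads), which gave the reads per library. RPKM keeps no size correction beyond the total, so a few abundant genes can move all others. The comparison of lc/fas with lc was made within each stage, averaged over the 3 stages, between stages, and against fas minus WT. On simulated data of 20577 genes, 52% to 54% of changes of 0.5 and 90% to 92% of changes of 1 (log2) were recovered per stage. Over the stages it was 91% and 98%, and 3 to 12 unchanged genes were called. The simulated noise was independent between libraries, with no deviation shared by a replicate number and no library that stood apart. These rates may therefore not hold for the real libraries.

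Replicate numbers come from the labels. Same-numbered lc/fas and lc libraries deviated together (correlations 0.17 to 0.35 at the early stage, 0.25 to 0.41 at 4 dpi and 0.25 to 0.49 at 6 dpi, all over 0.1, and every library highest with its own number), so the numbers were taken to pair the samples. The text names SlCLV3, SlWUS, SlCLE9 and SlYABBY2b, called list members (at most 15 per comparison, the largest first), the 6 highest and 6 lowest called genes averaging 2 RPKM or more in either genotype and with groups that do not overlap (over the stages, with the same sign at each), and the 4 largest changes in the fas region. Genes with a call only under the block, the differences between stages and backgrounds, and list members without a call were named after their values were seen. Unannotated IDs were mostly left unnamed. Members and gene lists were chosen with earlier results of these data known, and the list of genes in the fas region marked by the study (2 higher and 4 lower called of 16) was chosen by the study on these samples. Alternatives were the pseudocount, the filter, the scaling, the libraries in the fit, the replicate block and leaving out replicates. The RNAi-SlCLV3 and HC2 libraries entered the fit but no comparison here, and 3′ tag libraries were not used here. No genome or annotation with these IDs was used, so no coordinates or promoters are given.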

Additional observations from a re-analysis of the deposited data

Results flagged for a closer look

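In groups of 4 libraries, 1 library lay far from the other 3 (Dixon's test at the 95% level) in 12 of 138 groups. The groups were those of genes given per library and of the developmental positions. Chance gives about 1 in 20 for independent groups, but these share the same libraries. Of these 12, 5 were in lc replicate 2 at 4 dpi. SlYABBY2b had 198 RPKM there (others 94.75 to 98.74), SlCLV3 5.56 (others 2.321 to 2.668), the SOC1 homolog 27.7 (others 12.47 to 13.46), the ATC homolog Solyc06g074350 2.74 (others 0.5875 to 0.8484) and Solyc09g075710 33.2 (others 8.796 to 12.61). SlCLV3 was also high in lc/fas replicate 2 at 4 dpi, at 1.85 RPKM (others 0.8223 to 0.9683), and in lc replicate 2 at 6 dpi, at 1.46 RPKM (others 0.801 to 0.8885). The remaining libraries were high in the SOC1 homolog (lc early replicate 4, 15.9 RPKM, others 13.32 to 13.48), Solyc09g089690 (lc/fas 6 dpi replicate 4, 380 RPKM, others 359.2 to 359.6) and Solyc11g071530 (lc 6 dpi replicate 1, 5.72 RPKM, others 5.395 to 5.442). They were low in SlWUS (lc 6 dpi replicate 1, 2.58 RPKM, others 4.404 to 4.556) and Solyc12g056920 (lc/fas 4 dpi replicate 1, 11.6 RPKM, others 15.21 to 15.91).

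Of the differences named in the report, 10 passed the test of the difference itself. The effect of fas differed between the lc and WT backgrounds for Solyc03g115910 (0.66 over the stages and 0.98 at 4 dpi), the ZWI homolog (-0.64 over the stages and -0.83 at 4 dpi), Solyc12g082720 (-0.75 over the stages) and Solyc11g010480 (-0.28 over the stages). With 1 line of each genotype, a local difference of a line can give the same result and cannot be told apart from this. The lc/fas minus lc change differed from that at the early stage for SlYABBY2b (-1.76 at 4 dpi and -1.61 at 6 dpi) and Solyc02g071820 (1.01 at 4 dpi and 0.97 at 6 dpi).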

How the results depend on the processing

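The counts of called genes over the stages were 49 as reported, 5 when libraries were averaged over stages first, 20 with only lc and lc/fas libraries in the fit, 187 with the replicate block and 105 with the block but without lc replicate 2 at 4 dpi (chosen after seeing the data). Leaving out each replicate gave 25 to 89. Without that single library 46 were called, and without the genes of the fas region 39. For the early stage (18) the counts were 9 with a pseudocount of 0.1 RPKM, 28 with no filter, 3 with a mean of at least 5 RPKM, 39 with the block and 8 to 24 without a replicate. For 4 dpi (6) they were 10, 8, 1, 59 and 3 to 44 in the same order, and for 6 dpi (2) they were 1, 2, 1, 3 and 2, with 4 in the fit of lc and lc/fas libraries alone. The differences between backgrounds (6) were 15 with the block and 4 to 6 without a replicate. The stage differences at 4 dpi (4) and 6 dpi (3) against the early stage were 1 and 1 with a pseudocount of 0.1 RPKM, and that at 4 dpi was 2 without lc replicate 2 at 4 dpi. The cause was not tested. The block changed no other call named in the report.

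Of 756 recomputed values of named genes, 607 kept their direction and side of the threshold, 145 lost the call, 1 gained it and 3 changed sign. SlCLV3 at 6 dpi was 0.00 without lc/fas replicate 1 and 0.024 without lc replicate 2 (-0.15 to 0.02 without a replicate), and SlWUS at the early stage was 0.052 without lc replicate 2 (-0.33 to 0.05). SlYABBY2b and SlCLE9 kept their over-stage calls in all settings run. No scaling moved the median change of all genes by more than 0.1. Depth limits SlCLE9 and SlCLV3 at 6 dpi, with 4 to 6 and 12 to 27 reads per lc library.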

Other observations

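A pair of chromosome 2 genes, picked after their values were seen because they differ with the lc label, is given as a description. Solyc02g082360 had 2.70 to 8.18 RPKM in lc/fas and 2.61 to 8.21 RPKM in lc, against 0.165 to 0.864 RPKM in fas and 0.0887 to 1.63 RPKM in WT. Solyc02g081490 had 3.05 to 5.01 RPKM in lc/fas and 3.12 to 6.17 RPKM in lc, against 0.185 to 0.985 RPKM in fas and 0.240 to 1.28 RPKM in WT. All lc/fas and lc libraries were above all fas and WT libraries for both genes, which the choice of the genes fixed.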
